A study of Homo sapiens with 6 samples.

Results

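The RAB small GTPases were taken as every amplicon whose gene symbol is RAB followed by digits and at most 1 letter. This gave 58 members among the 20812 amplicons of the panel. RAB proteins are molecular switches of membrane traffic. In the GTP-bound form they sit on a particular vesicle or organelle and recruit effectors such as motors and tethers. Exchange factors load them with GTP, GTPase-activating proteins end the signal, and GDP dissociation inhibitors take them off the membrane. In mammary epithelium, RABs of the recycling endosome are known for returning receptors and adhesion proteins to the cell surface.

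Expression was measured in the human mammary epithelial line MCF10A, a non-tumorigenic and basal-like line, by Ion AmpliSeq Transcriptome sequencing. The assay reads each gene through a single short stretch of its cDNA, amplified by PCR, whose reads are counted. There were 2 libraries for each of 3 groups, namely the parental line (wt), cells stably overexpressing eGFP as the control, and cells stably overexpressing the KCNJ3 gene product GIRK1. GIRK1 is a subunit of G-protein activated inwardly rectifying potassium channels, and the comparison asks which transcripts change when a benign line carries it. Per the methods, the constructs were made in the bicistronic pIRES2eGFP vector and the transfected cells were selected with G418 and sorted by eGFP fluorescence, so that the GIRK1 cells also carry the eGFP cassette. GIRK1 and eGFP cells come from separate transfections, and an effect of GIRK1 and a property of the particular transfected cells cannot be told apart. The design entry of the series counts 2 lines with GIRK1 and 2 controls, but the labels number replicates, and it is not settled whether n = 2 counts lines, cultures or repeats of a culture. The p-values therefore measure only the spread between these libraries.

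The libraries held 2506120 (wt replicate 1) to 16040556 (wt replicate 2) reads, and the level that 3 reads stand for ran from 0.187 to 1.20 RPM (read counts scaled to the library total). KCNJ3, on chromosome 2 between 154698299 and 154858352 of GRCh38, was covered by 2408 and 3677 reads in the GIRK1 libraries and by 0 reads in both eGFP libraries and in wt replicate 2, which made it at least 489-fold higher in GIRK1 than in eGFP. The library labelled wt replicate 1 stood apart from the other 5. It held 48 reads of KCNJ3, its 12 luminal markers summed to 14625 RPM against 471 to 611 RPM elsewhere, and its 10 basal markers summed to 343 RPM against 15809 to 36988 RPM. The estrogen receptor ESR1, PGR, TFF1, TFF3 and KRT19 had reads in it and 0 reads in the other 5 libraries, which carried the basal keratin KRT5 at 3862 to 10660 RPM. The basal regulator TP63 was at 0 in all 6 libraries. That library was therefore kept out of the main tests and is described on its own. The GIRK1 libraries carry a tag in their deposited names that the other libraries lack, and if that tag marks a run, its effect and that of GIRK1 cannot be told apart.

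RAB25 and RAB31 were the 2 members at 0 reads in both libraries of one transfected group and at 20 reads or more in both libraries of the other. Their promoters are shown because they are the members the results turn on. RAB25 lies on chromosome 1 (156061160 to 156070514) and RAB31 on chromosome 18 (9708165 to 9862551), both on the plus strand of GRCh38. The sequences are from RefSeq windows (GRCh38.p14), each the 250 bases before the RefSeq start, with CG dinucleotides in capitals. They are printed at chr1:156060910-156061159 and chr18:9708051-9708164, up to the base before the gene start given above, which is from GENCODE.
RAB25: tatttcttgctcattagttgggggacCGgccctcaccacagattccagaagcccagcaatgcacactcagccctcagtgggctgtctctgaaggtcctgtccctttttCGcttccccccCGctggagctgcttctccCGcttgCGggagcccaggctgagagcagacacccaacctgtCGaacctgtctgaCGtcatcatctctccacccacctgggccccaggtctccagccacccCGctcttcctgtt
RAB31: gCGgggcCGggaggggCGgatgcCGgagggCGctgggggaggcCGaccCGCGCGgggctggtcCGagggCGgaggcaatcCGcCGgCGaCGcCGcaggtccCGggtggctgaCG
The RAB25 window held 8 CG dinucleotides and had a GC content of 60.4%. The RAB31 window of 250 bases runs past the gene start given above. Only its most upstream 114 bases, with 18 CG dinucleotides, are printed. The whole window held 40 and had a GC content of 82.0%. Among all 35116 windows of the same length the median was 11 CG dinucleotides. Of these windows, 45.9% held as few as RAB25 or fewer, and 2.16% held as many as RAB31 or more. A window could be matched for 46 of the 58 members, and the one richest in CG was taken where a member had several. These had a median of 22.5 and a range of 2 to 40 CG dinucleotides. The median of 11 is over single windows, so these medians are not on the same footing. By this count RAB31 had the most CG-dense window of these members and RAB25 the 4th lowest count. No methylation or binding was measured, so these are descriptions of the sequence.

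RAB25, also known as Rab11c, is the epithelial member of the RAB11 group of recycling endosome GTPases. In GIRK1 replicates 1 and 2 it had 618 and 422 reads, or 55.6 RPM (95% exact binomial interval 51.3 to 60.2) and 40.8 RPM (37.0 to 44.9). Both eGFP libraries had 0 reads, for which a limit of 3 reads was used, or 0.585 RPM in replicate 1 and 0.293 RPM in replicate 2. In wt replicate 2 it had 50 reads, or 3.12 RPM (2.31 to 4.11). Both GIRK1 libraries lay above all 3 controls, and the parental library lay between eGFP and GIRK1. The mean of 48.2 ± 10.5 RPM (SD, n = 2) in GIRK1 was at least 82.4-fold higher than eGFP and 15.5-fold higher than wt replicate 2. The parental library itself was at least 5.33-fold above eGFP, so the controls did not share a level. In bulk samples, fewer cells of a type and less RNA per cell cannot be told apart. These intervals and limits cover counting error only, since amplicon reads without molecular identifiers are not independent molecules.

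The other members of the RAB11 group, the widely expressed RAB11A and RAB11B, gave the background for RAB25. RAB11A had 97.0 RPM in wt replicate 2, 122 and 91.4 RPM in eGFP, and 91.6 and 84.3 RPM in GIRK1. Its log2 difference between GIRK1 and eGFP was -0.33 (SE 0.24, 95% interval -0.90 to 0.25, adjusted p = 0.491, edgeR's quasi-likelihood test, Benjamini-Hochberg). RAB11B had 97.9 RPM in wt replicate 2, 121 and 121 RPM in eGFP, and 113 and 100.2 RPM in GIRK1. For RAB11B the log2 difference was -0.23 (SE 0.20, interval -0.70 to 0.25, adjusted p = 0.569, same test). Neither passed the threshold of 0.05, and the intervals leave room for a moderate decrease. RAB25 thus supplied 21.4% (exact interval 19.9 to 22.9) and 18.1% (16.6 to 19.7) of the RAB11-group reads in the GIRK1 libraries, against 0% (up to 0.241% and 0.138%, by the limit of 3 reads) in eGFP and 1.57% (1.17 to 2.07) in wt replicate 2. Shares between amplicons also depend on how efficiently each is amplified, which was not measured.

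RAB31, also known as Rab22b, belongs to the RAB5 group of early endosome GTPases and acts between the trans-Golgi network and endosomes. It had 20 and 44 reads in the eGFP libraries, or 3.90 RPM (exact interval 2.38 to 6.02) and 4.30 RPM (3.12 to 5.77), and 39 reads in wt replicate 2, or 2.43 RPM (1.73 to 3.32). Both GIRK1 libraries had 0 reads, which allows up to 0.270 and 0.290 RPM. The 3 controls therefore shared a low level that both GIRK1 libraries lacked. RAB31 was at least 14.1-fold lower in GIRK1 than the eGFP mean of 4.10 ± 0.28 RPM (SD, n = 2), and at least 12.2-fold lower than the mean of the 3 controls, 3.54 ± 0.98 RPM (SD, n = 3). In the controls it was a minor transcript of its group, supplying 0.446% to 0.837% of the group's reads.

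The relatives of RAB31 were expressed at 39.0 to 243 RPM in these 5 libraries. RAB22A, its closest relative, had 68.8 RPM in wt replicate 2, 70.6 and 67.7 RPM in eGFP, and 78.7 and 68.6 RPM in GIRK1. The groups overlapped, with a log2 difference of 0.05 (SE 0.20, interval -0.44 to 0.53, adjusted p = 0.912, edgeR's quasi-likelihood test, Benjamini-Hochberg). RAB5A, RAB5B and RAB5C, which direct fusion of early endosomes, had log2 differences of 0.33 (SE 0.24), 0.09 (SE 0.24) and 0.25 (SE 0.21). RAB5C lay higher in both GIRK1 libraries (205 and 243 RPM) than in the 3 controls (179 to 190 RPM), by less than 1.5-fold. RAB21, which acts in integrin endocytosis, had a log2 difference of 0.01 (SE 0.22). The adjusted p-values of these 4 members ran from 0.479 (RAB5A) to 0.983 (RAB21) in the same test. The fibroblast marker list was also counted in every library. It summed to 31.6 and 33.2 RPM in GIRK1 against 8.21 to 13.0 RPM in the 3 controls. This difference lay in DCN, at 27.0 and 25.2 RPM against 0.780 to 10.2 RPM. COL1A1 overlapped, at 4.59 and 8.02 RPM in GIRK1 against 2.8 to 9.17 RPM in the 3 controls. COL3A1 and LUM were at 0 in both GIRK1 libraries, and COL1A2 and PDGFRA at 0 in all 6 libraries. The part of the DCN difference in the RAB results was not tested.

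**Figure D1:**
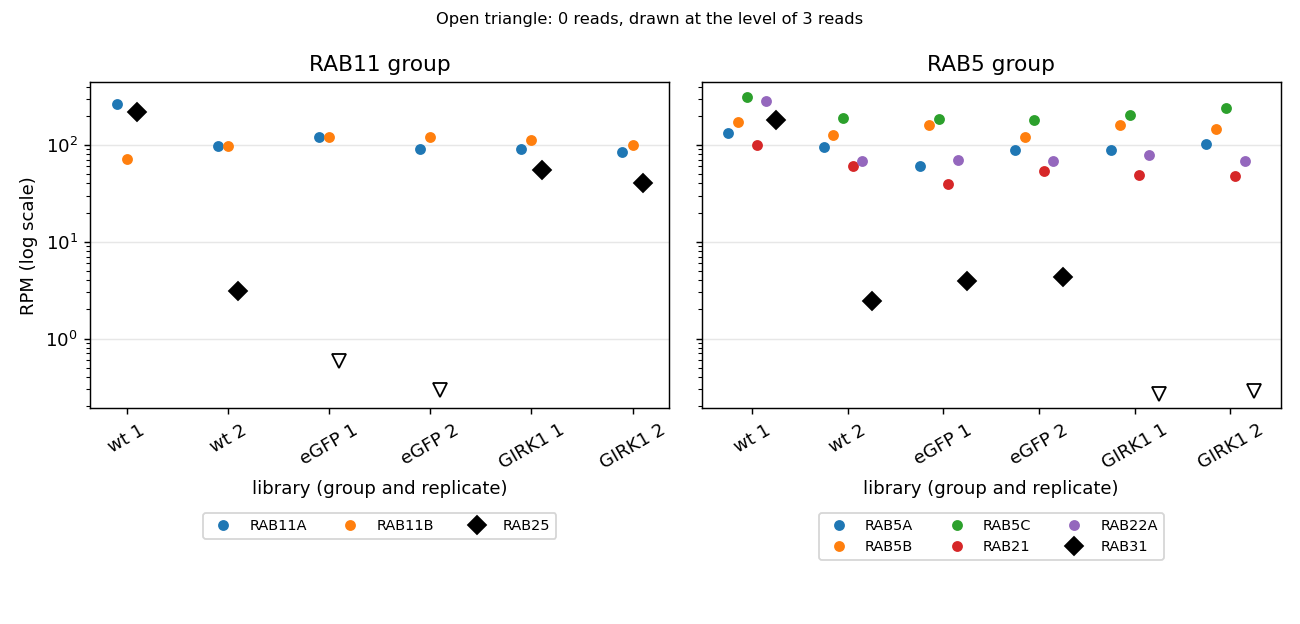
RPM (log scale) of the RAB11 group (left) and the RAB5 group (right) in each of the 6 libraries, 1 point per gene and library, with open triangles for 0 reads drawn at the level of 3 reads. RAB25 (diamonds) sits at 40.8 and 55.6 RPM in GIRK1 and is a triangle in both eGFP libraries, RAB31 (diamonds) is a triangle in both GIRK1 libraries, and in wt replicate 1 both lie among their relatives.

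Across the whole family, RAB25 and RAB31 stood apart from a bulk whose differences between GIRK1 and eGFP were small. Of the 58 members, 45 had enough reads to be tested, and 2 of these passed an adjusted p of 0.05 in edgeR's quasi-likelihood test, RAB25 higher and RAB31 lower. Among all 11279 genes tested, 1.52% were called, 0.78% higher and 0.745% lower. Both members were already known from earlier results of these data, so their values are given as a description without a p. The other 43 tested members had log2 differences from -1.08 (RAB9A) to 0.80 (RAB38), 20 above 0 and 23 below, and the lowest adjusted p among them was 0.167 (RAB38). Their median SE was 0.26 on the log2 scale. The median over the 45 tested members was -0.01, against 0.01 over all genes. Setting RAB25 and RAB31 at their bounds cannot move this median, because each stays at its own end of the range. Within 1.5-fold lay 32 members (71.1%, against 69.9% of all genes), and past 2-fold lay 3 (6.67%, against 13.7%), namely RAB25, RAB31 and RAB9A.

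The count of called members, like that of all genes, depended on single libraries. Leaving out a replicate leaves a lone library that is assumed to vary like the other pair. Counts from such fits are therefore given further below only for how far they move, not as numbers of changed genes. Without eGFP replicate 2 the median log2 difference of the members was -0.12, against 0.04 over all genes. Without GIRK1 replicate 1 it was -0.16, against 0.0035 over all genes. The eGFP replicates differed from each other more than the GIRK1 replicates, with an SD of the log2 ratio over the tested members of 0.81 against 0.39, and over all genes of 0.80 against 0.45. In a fit of all 6 libraries, with both wt libraries as a group of their own, 0 members and 0 genes were called, with 606 genes at an unadjusted p under 0.05, while DESeq2 on the 4 libraries called 2 members, the same as the main test.

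**Figure D2:**
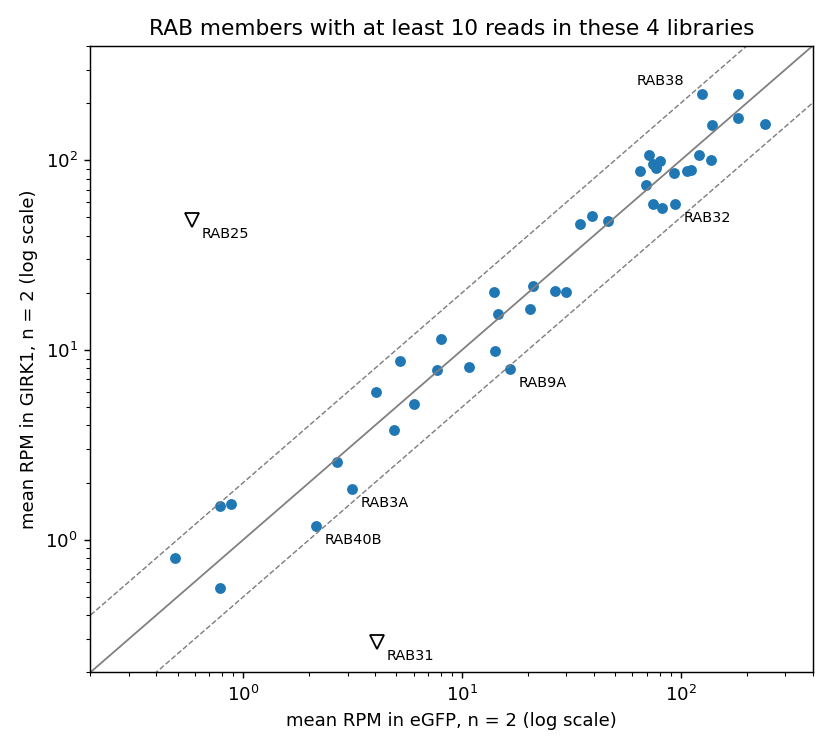
Mean RPM of the 47 members with at least 10 reads in the 4 libraries, eGFP (n = 2) on the x axis and GIRK1 (n = 2) on the y axis, both log scales, with the line of equality and dashed lines at 2-fold. RAB25 and RAB31 (open triangles, the side with 0 reads drawn at the level of 3 reads) lie far from the line, and most other members lie between the dashed lines.

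By role, the members of the endoplasmic reticulum and Golgi came first in number. Of 18 listed, 12 were tested and 0 passed the threshold in edgeR or DESeq2, with 1 (RAB1B) at an unadjusted p under 0.05 and a median log2 difference of -0.06. RAB1B, which acts in transport from the endoplasmic reticulum to the Golgi, was among the most abundant members, with 162 RPM in wt replicate 2, 264 and 221 RPM in eGFP, and 168 and 143.1 RPM in GIRK1. Its GIRK1 libraries lay below both eGFP libraries and on either side of wt replicate 2, and the log2 difference from eGFP was -0.69 (SE 0.23, adjusted p = 0.181, edgeR's quasi-likelihood test, Benjamini-Hochberg). Its near-identical relative RAB1A had a log2 difference of -0.00. RAB6B, a Golgi member best known from neurons, had 15 reads in wt replicate 2, 5 and 8 in eGFP, and 18 and 15 in GIRK1. In RPM its GIRK1 libraries lay above all 3 controls, with a log2 difference of 0.80 (SE 0.55, adjusted p = 0.464, same test). RAB39B was the least even member, with 82 reads in wt replicate 2, 0 and 16 in eGFP, and 25 and 8 in GIRK1. How reads shared by close relatives such as RAB1A and RAB1B or RAB6A and RAB6C were assigned is not given in the sources used here.

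The early endosome group (7 of 7 tested, median log2 difference 0.05) and the recycling and polarised delivery group (13 of 14 tested, median 0.05) held RAB31 and RAB25, respectively, and 1 member of each was called. The remaining recycling members, which include RAB8A and RAB8B of apical transport, RAB10 and RAB13 of basolateral and junctional delivery and RAB14, had log2 differences of -0.50 (RAB13) to 0.54 (RAB14). RAB13 had 127 RPM in wt replicate 2, 139.1 and 137 RPM in eGFP, and 117 and 83.7 RPM in GIRK1, so the groups did not overlap, by less than 1.5-fold.

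Traffic steps towards lysosomes were represented by RAB7A, which governs the late endosome, and RAB9A, which returns cargo from late endosomes to the Golgi. RAB7A had 169 RPM in wt replicate 2, 207 and 156 RPM in eGFP, and 164 and 168 RPM in GIRK1, with a log2 difference of -0.18 (SE 0.24, interval -0.76 to 0.40, adjusted p = 0.713, edgeR's quasi-likelihood test, Benjamini-Hochberg). RAB9A had 15.2 RPM in wt replicate 2, 23.0 and 9.97 RPM in eGFP, and 7.92 and 8.02 RPM in GIRK1. Both GIRK1 libraries lay below all 3 controls, but the eGFP replicates were far apart, and the log2 difference of -1.08 (SE 0.45) had an adjusted p of 0.260 in the same test.

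Of the 8 members of regulated secretion, 5 were tested and 0 passed the threshold in edgeR or DESeq2, with 1 (RAB3D) at an unadjusted p under 0.05. Their median log2 difference was -0.60, with 4 of the 5 below 0. Against the 3 controls the median was -0.45, again with 4 of the 5 below 0. In that comparison 4 lay within 1.5-fold and 0 were at an unadjusted p under 0.05. RAB3D, found on secretory granules, had 64.5 RPM in wt replicate 2, 86.2 and 78.6 RPM in eGFP, and 61.9 and 50.4 RPM in GIRK1. Its log2 difference was -0.60 (SE 0.22, adjusted p = 0.212, edgeR's quasi-likelihood test, Benjamini-Hochberg). RAB3A, the synaptic vesicle member, had 2.49 RPM in wt replicate 2, 3.71 and 2.54 RPM in eGFP, and 2.16 and 1.55 RPM in GIRK1, with a log2 difference of -0.76 (SE 0.49, adjusted p = 0.431, same test). RAB27A and RAB27B, which dock granules and exosome-bearing endosomes, had log2 differences of opposite sign, 0.33 (SE 0.29) and -0.61 (SE 0.26).

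RAB38 and RAB32, close relatives that deliver cargo to lysosome-related organelles such as melanosomes, also differed in sign. RAB38 had 172 RPM in wt replicate 2, 94.6 and 155 RPM in eGFP, and 223 and 222 RPM in GIRK1. Both GIRK1 libraries lay above all 3 controls, with a log2 difference from eGFP of 0.80 (SE 0.25, interval 0.20 to 1.41, adjusted p = 0.167, edgeR's quasi-likelihood test, Benjamini-Hochberg). RAB32 had 85.9 RPM in wt replicate 2, 95.4 and 92.6 RPM in eGFP, and 48.9 and 68.6 RPM in GIRK1. Both GIRK1 libraries lay below all 3 controls, with a log2 difference of -0.72 (SE 0.24, interval -1.30 to -0.14, adjusted p = 0.187, same test). The cilium-related RAB23 and RAB28 had log2 differences of 0.46 each. RAB40B, which carries a SOCS box that links it to ubiquitin ligases, had 33 reads in wt replicate 2, 10 and 24 in eGFP, and 10 and 15 in GIRK1, with a log2 difference of -0.91 (SE 0.52, adjusted p = 0.380, same test).

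At an unadjusted p under 0.05, 1 of the 43 members was higher in GIRK1 (RAB38) and 4 were lower (RAB1B, RAB32, RAB3D and RAB9A), beside 8.42% of all genes higher and 10.8% lower.

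**Figure D3:**
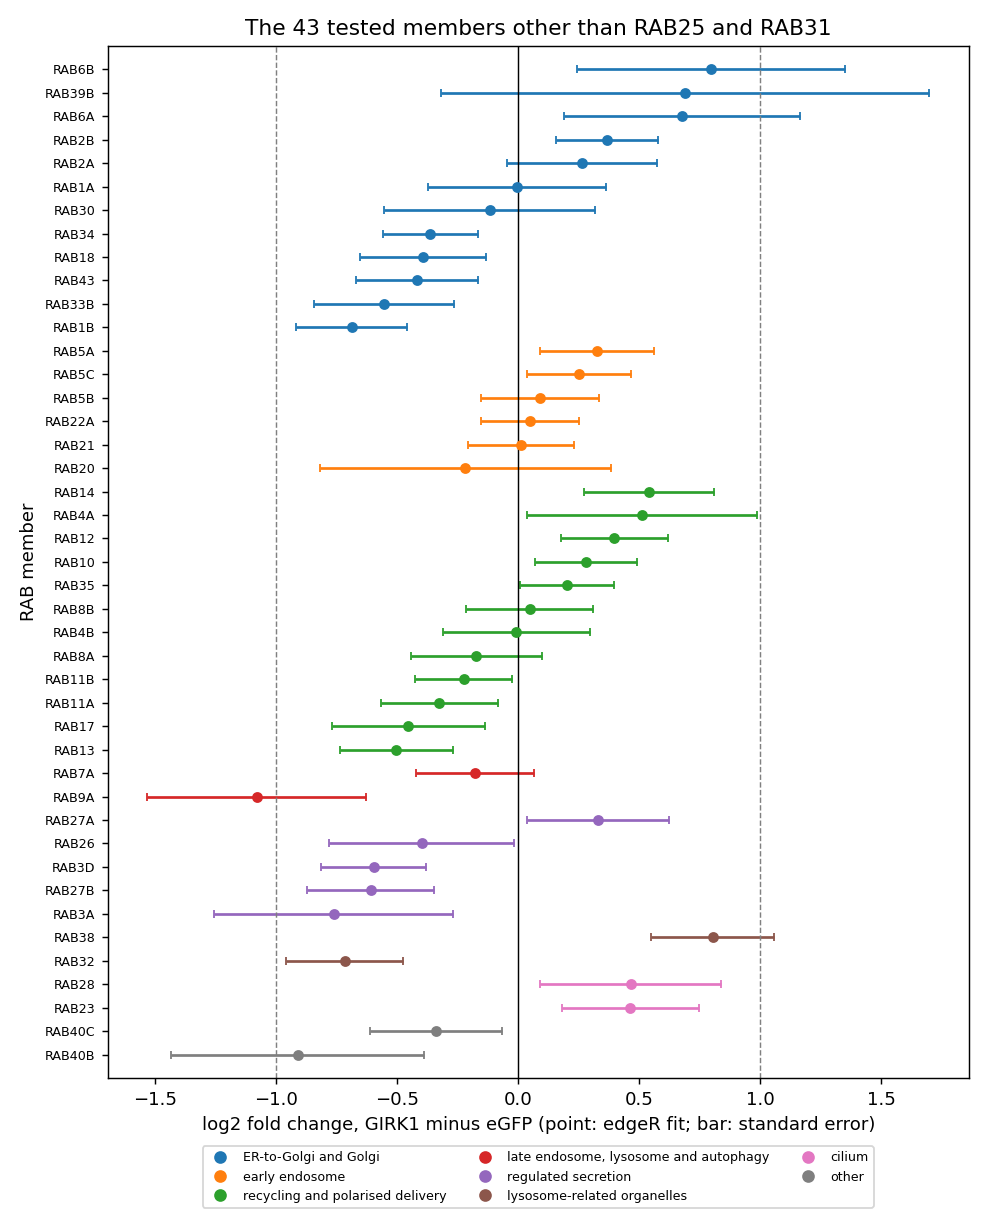
Log2 fold change, GIRK1 minus eGFP, of the 43 tested members other than RAB25 and RAB31, 1 row per member, grouped by role (colours); points are the edgeR fit, bars are standard errors and dashed lines mark 2-fold. All points but RAB9A (-1.08) lie between the dashed lines, and every role with more than 2 tested members has points on both sides of 0.

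With wt replicate 2 added to the controls, the bulk of the family again had small differences. Of the 45 members tested, 1 was called (RAB31), beside 1.21% of 11389 genes, 0.799% higher and 0.413% lower. At an unadjusted p under 0.05, 3 members were higher (RAB25, RAB2B and RAB38) and 3 lower (RAB31, RAB32 and RAB9A), beside 8.58% of genes higher and 10.2% lower. RAB25, for which the 3 controls ran from 0 to 3.12 RPM, was not called in that fit. Without eGFP replicate 2, without GIRK1 replicate 1 or without GIRK1 replicate 2 the count was 0. Without eGFP replicate 1 it was 2, and leaving out wt replicate 2 gives the first comparison again. The median log2 difference of the tested members was -0.00, against -0.01 for all genes, and 36 of them (80.0%) lay within 1.5-fold, against 74.8% of all genes. This comparison shares the GIRK1 and eGFP libraries with the first and is no independent repeat of it.

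A count of libraries that did not overlap needs no model. Among the 45 members with a mean of at least 10 reads over the 5 libraries, 3 had both GIRK1 libraries above all 3 controls and a mean RPM at least 1.5-fold higher (RAB25, RAB38 and RAB6B). For 5 members both lay below, at least 1.5-fold lower in the mean (RAB31, RAB32, RAB3A, RAB40B and RAB9A). Beside this stand 10.1% of 11150 genes that were higher and 9.87% that were lower by the same rule, so the counts of members are near the background. The means of the 3 controls and of GIRK1 were 140.7 ± 40.8 and 222 ± 0.316 RPM for RAB38 and 91.3 ± 4.87 and 58.8 ± 13.9 RPM for RAB32 (SD, n = 3 and n = 2).

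The summed level of all 58 members was 2433 RPM in wt replicate 2, 2534 and 2560 RPM in eGFP, and 2667 and 2530 RPM in GIRK1, so the groups overlapped in the total read share of the family. Over these 5 libraries, 20 members averaged more than 50 RPM. The most abundant were RAB5C (mean 200.5 RPM), RAB1B (192 RPM), RAB38 (173 RPM), RAB7A (173 RPM) and RAB5B (142.8 RPM). This order is approximate, because amplification efficiency differs between amplicons. At the other end, 11 members had at most 3 reads in each of the 5 libraries, and RAB3C, RAB41 and RAB6C had 0 reads in all 6 libraries, which allows up to 0.187 RPM in the deepest. The 13 members that were not tested were RAB15, RAB19, RAB24, RAB33A, RAB36, RAB37, RAB39A, RAB3B, RAB3C, RAB40A, RAB41, RAB42 and RAB6C.

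In the library labelled wt replicate 1, which is a single library without a test, the members that differed were mostly higher. Genes in general were split more evenly. Among 45 members with enough reads, 13 were at least 2-fold higher than the mean of the 3 controls and above each of them, 3 were lower by the same rule and 29 were neither, beside 21.6% of 11185 genes higher and 19.7% lower. RAB25 had 543 reads, or 217 RPM (exact interval 199 to 236), which was 4.49-fold above the GIRK1 mean. RAB31 had 448 reads, or 179 RPM (163 to 196), 50.4-fold above the controls. RAB15, a member of the early and recycling endosome, had 181 reads, or 72.2 RPM, against 0.390 to 0.586 RPM in the controls.

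RAB25 and RAB31 were thus both high in that library, whereas in the GIRK1 libraries RAB25 was present and RAB31 was at 0. The luminal genes ESR1, PGR, TFF1, TFF3 and KRT19, of which TFF1 reached 5106 RPM in wt replicate 1, had 0 reads in both GIRK1 libraries. The other 7 genes of that list had reads in all 6 libraries, and the whole list summed to 523 and 519 RPM in GIRK1 against 471 to 611 RPM in the 3 controls. Within it EPCAM, an epithelial adhesion gene, stood at 113 and 127 RPM in GIRK1, 63.6 and 81.7 RPM in eGFP and 117 RPM in wt replicate 2. KRT8 and GATA3 lay lower in both GIRK1 libraries than in the 3 controls. KRT8 had 70.0 and 59.3 RPM against 72.6 to 78.0 RPM, and GATA3 14.0 and 13.1 RPM against 14.95 to 19.2 RPM. FOXA1, KRT18, ELF3 and CLDN4 overlapped with the controls. Conversely, RAB38 and RAB34 had 0 reads in wt replicate 1, at least 118-fold and at least 87.2-fold lower than the mean of the 3 controls. RAB34, a Golgi-associated member that acts in lysosome positioning and ciliogenesis, had 90.4 RPM in wt replicate 2, 105 and 118 RPM in eGFP, and 84.9 and 92.8 RPM in GIRK1. RAB32, the relative of RAB38, was 2.72-fold lower at 33.5 RPM. Other members that were higher in wt replicate 1 were RAB3A (6.03-fold), RAB30 (5.86-fold), RAB39B (4.48-fold), RAB22A (4.09-fold), RAB8A (3.46-fold), RAB14 (3.23-fold), RAB11A (2.55-fold), RAB26 (2.51-fold), RAB1B (2.13-fold) and RAB8B (2.06-fold). The summed level of the 58 members was 4376 RPM in this library.

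**Figure D4:**
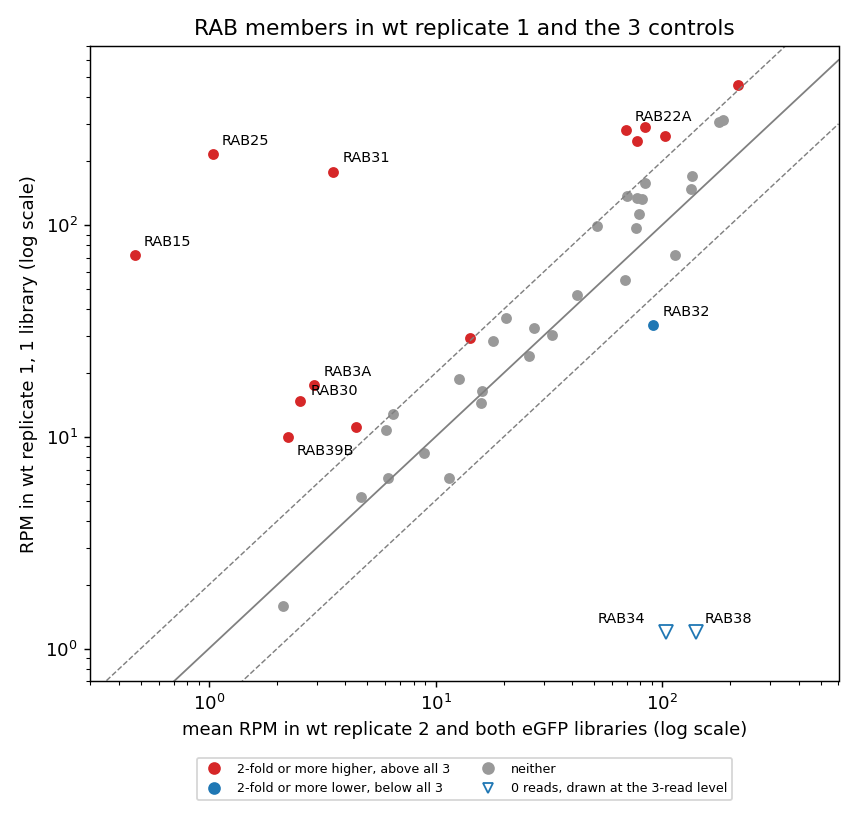
RPM of RAB members in wt replicate 1 (y axis, 1 library) against their mean RPM in wt replicate 2 and both eGFP libraries (x axis), both log scales, with the line of equality and dashed lines at 2-fold. RAB25, RAB31 and RAB15 lie far above the line, and RAB34 and RAB38 (open triangles, 0 reads drawn at the level of 3 reads) lie far below it.

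The machinery around the RABs was read from a hand-written list of 122 regulators and effectors on the panel, of which 107 were tested. In GIRK1 against eGFP 1 of them was called, in the downward direction, and 13 were higher and 9 lower at an unadjusted p under 0.05, beside 1.52% of all genes called and 8.42% higher and 10.8% lower at the unadjusted threshold. Their median log2 difference was 0.19, with 68 above 0 and 39 below, against 5761 above and 5518 below over all genes. Against the 3 controls their median was 0.12, with 67 of 108 above 0. The called gene was DENND2D, an exchange factor, with 61 reads in wt replicate 2, 47 and 77 in eGFP, and 1 read in each GIRK1 library. Pooled over the libraries of each group it was lower in GIRK1 by a ratio of 86.6 (exact interval 23.5 to 723, counting error only), and it too was known from earlier results. Next came TBC1D1, a GTPase-activating protein of glucose transporter vesicles, with a log2 difference of -1.24 (SE 0.21, adjusted p = 0.0508, edgeR's quasi-likelihood test, Benjamini-Hochberg). Exchange factors (31 of 36 tested) had a median of 0.21, GTPase-activating proteins (30 of 34) of 0.06 and effectors (39 of 45) of 0.27 (0.10 against the 3 controls), with 8 effectors higher and 3 lower at an unadjusted p under 0.05. The count of called regulators also depended on single libraries, as did that of all genes.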

How the data were processed

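Expression was measured by Ion AmpliSeq Transcriptome sequencing of 6 libraries on an Ion S5 XL. Per the methods, the authors mapped reads to the AmpliSeq_Transcriptome_21K.v1 reference with the Ion Torrent suite (version not given in the sources used here) and deposited whole-number read counts per amplicon. The RPM values that the authors deposited are these counts scaled to the library total. Amplicons are placed on transcripts, with no build named, and gene positions are from GENCODE (GRCh38), matched by symbol.

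Groups and replicate numbers were taken from the labels. The test was that of edgeR 4.0.16 in R 4.3.3 (TMM, filterByExpr, glmQLFit and glmQLFTest) over all genes, with Benjamini-Hochberg adjustment and a threshold of 0.05. The main comparison was GIRK1 against eGFP (4 libraries, 11279 genes, 2 residual degrees of freedom, common biological coefficient of variation 0.240). The second was GIRK1 against both eGFP libraries and wt replicate 2 (11389 genes, 3 residual degrees of freedom). The library labelled wt replicate 1 carried luminal markers and was left out. Intervals are exact binomial at 95%, and bounds use 3 reads in the shallower library of the group at 0.

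The members, the lists of roles, regulators and markers, and the tests were chosen with earlier results of these data known. Named in full were members called in a comparison, members at 3 reads or fewer on one side, members whose GIRK1 libraries lay outside all 3 controls by 1.5-fold, the 5 most abundant members and the relatives of RAB25 and RAB31. RAB3D, RAB13, RAB15, RAB27A, RAB27B, RAB34, RAB39B and RAB1A were named after their values were seen. Alternatives were other normalizations and filters, DESeq2 1.42.0, all 6 libraries, a replicate block and leaving out each replicate. The procedure was tested on simulated data with 200 genes changed 8-fold. In GIRK1 against eGFP 197 of them were recovered and 20 unchanged genes were called. Against the 3 controls 200 were recovered and 23 unchanged genes were called. Smaller changes were not simulated.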

Additional observations from a re-analysis of the deposited data

Results flagged for a closer look

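The library labelled wt replicate 1, which entered none of the main tests, held more than 3 reads of 6 members that were either at least 10-fold below it in each of the 3 controls (wt replicate 2 and both eGFP libraries) or had at most 3 reads in each of them. RAB25 stood at 217 RPM, RAB31 at 179 RPM and RAB15 at 72.2 RPM. The remaining 3 were sparse in all libraries, with RAB37 at 6.78 RPM, RAB3B at 4.79 RPM and RAB19 at 2.39 RPM, against 0 reads of RAB37 and RAB3B in the other 5 libraries and 1 read of RAB19 in wt replicate 2. The same library carried luminal marker RNA at 14625 RPM in sum, and the part of this in the 6 values was not tested.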

How the results depend on the processing

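With 2 libraries a group and 2 residual degrees of freedom, counts of called genes moved strongly with the settings. In GIRK1 against eGFP (172 genes, 2 RAB members, 1 regulator), dropping the filter gave 881 genes and 5 regulators, and at least 10 reads in every library gave 111 genes, 0 members, 0 regulators and a member median log2 difference of -0.11. That filter leaves 41 members and removes RAB25 and RAB31 by construction. DESeq2 called 694 genes and 3 regulators. All 6 libraries gave 0 genes, 0 members and 0 regulators in edgeR, with 606 genes at an unadjusted p under 0.05. Leaving out 1 replicate gave 89 to 2933 genes, 1 to 15 members, 1 to 25 regulators and member medians of -0.16 to -0.012. In GIRK1 against the 3 controls (1 member called), no filter gave 374 genes and 2 members, and DESeq2 gave 806 genes. All 6 libraries, here with wt replicate 1 counted among the controls, gave 7 genes, 0 members and a median of -0.15. Leaving out 1 replicate gave 19 to 984 genes, 0 to 2 members and medians of -0.11 to 0.056. The cause of these shifts was not tested.

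The replicate block, with the replicate number as a term, gave 590 genes, 2 members and 3 regulators in the first comparison, and 558 genes and 2 members in the second. Nothing in the labels ties libraries of the same number together. The deviations of eGFP and GIRK1 libraries of the same number correlated at 0.194 over 9288 genes, with 2 pairs, so the numbers were not treated as a pairing.

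For the named members' log2 differences in GIRK1 against eGFP, 169 values under the alternatives kept their direction and side of the threshold, 5 passed it only without eGFP replicate 2 (RAB11A, RAB1B, RAB32, RAB38 and RAB9A), 3 lost it (RAB25 and RAB31 with all 6 libraries, RAB31 without GIRK1 replicate 1) and 7 reversed, all of members that were not called. RAB21 was at -0.0012 with DESeq2 size factors and -0.0017 in DESeq2. Leaving out 1 replicate gave -0.15 to 0.19 for RAB21, -0.42 to 0.097 for RAB7A, -0.042 to 0.13 for RAB22A (-0.038 without GIRK1 replicate 1) and -0.16 to 0.37 for RAB5B, with the reversals of these members without an eGFP replicate or, for RAB22A, also without GIRK1 replicate 1. In the shallowest library behind a main test, eGFP replicate 1, 0 reads allow a level of up to 0.585 RPM.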

Other observations

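eGFP and the parental line, both without the GIRK1 insert, also differed in single members. RAB25 had 50 reads in wt replicate 2 and 0 in both eGFP libraries, and RAB39B had 82 reads in wt replicate 2 against 0 and 16. Over the 45 tested members the SD of the log2 ratio of eGFP replicate 2 to wt replicate 2 was 0.84, against 0.46 over all genes. Past 2-fold lay 2 members (4.44%), against 3.96% of all genes. For eGFP replicate 1 to wt replicate 2 the SD was 1.26, against 0.89 over all genes. Here 4 members (8.89%) lay past 2-fold, a smaller share than the 17.8% of all genes. Both member SDs include RAB25 and RAB39B and were not computed without them, so they do not describe the bulk of the family. There was 1 usable parental library, so these differences have no test.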
